A study of Mus musculus with 6 samples.

Results

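The MHC class I presentation genes described here are 10 genes chosen by symbol for their role in showing peptides at the cell surface, out of 54532 genes in the deposited count table: H2-K1, H2-D1, B2m, Tap1, Tap2, Tapbp, Nlrc5, H2-T23, Erap1 and H2-Q4. The choice was made with earlier results of these data known. All 10 were found in the table, and all 10 had enough counts to be tested. They were measured by bulk RNA-seq in Y-positive MB49 cells, a line grown from a bladder cancer of a male mouse. CRISPR-edited cells form 2 groups of 3 libraries: those labelled Y-KO, in which Y was knocked out, and those labelled Y-Scr, the controls, which received a guide RNA with no target. The same protocol text stands on all 6 libraries. It describes sorting of the transduced cells on the fluorescent protein tRFP and growth as clones from single cells, so a group may stand for a single clone or a few, and it names no guide for Y-KO. The labels name a tumor as the tissue and MB49 as the cell line, and do not say whether replicates were separate cultures or clones. The p-values therefore rest on how far these 6 libraries spread, and that spread may be technical.

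Class I molecules carry short peptides from inside the cell to its surface, where CD8 T cells and natural killer cells read them. A heavy chain, encoded in the mouse by the H2-K, H2-D, H2-Q, H2-T and H2-M genes, pairs with beta-2-microglobulin, and the pair takes up a peptide that the proteasome has cut, the transporter TAP has moved into the endoplasmic reticulum and ERAP1 may have shortened. NLRC5 is the main transactivator of class I genes and acts through a promoter module of S, X and Y boxes, while NF-kappa B and interferon regulatory factors act at an upstream enhancer. Tumor cells often carry low levels of these genes and raise them when exposed to interferon.

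The sequences before the RefSeq start sites of 5 of these genes are printed first, because the genes differed in which of 3 searched letter patterns they matched. No pattern for the S box was searched. RefSeq promoters (GRCm38.p6, 250 bases before to 50 after the start) matched 8 of the 10 genes. Tap2 and Nlrc5 were not matched. The RefSeq start can differ from the gene start in the count table: the H2-D1 window lies within the gene's interval there, and the H2-T23 window mostly does. Each line gives the 160 bases from position -180 to -21 relative to the RefSeq start, on the gene's strand, with matches to 3 patterns in capitals: a kappa B-like run (GGGATTNCC), an interferon regulatory factor-like run (AANNGAAA), and the pair of an X2-like run (TGACG) followed after 15 to 30 bases by a Y-like run (ATTGG). The regions are chr17:34000354-34000513 on the minus strand for H2-K1, chr17:35262914-35263073 on the plus strand for H2-D1, chr17:35379437-35379596 on the plus strand for H2-Q4, chr2:122147507-122147666 on the plus strand for B2m, and chr17:36032722-36032881 on the minus strand for H2-T23.
H2-K1: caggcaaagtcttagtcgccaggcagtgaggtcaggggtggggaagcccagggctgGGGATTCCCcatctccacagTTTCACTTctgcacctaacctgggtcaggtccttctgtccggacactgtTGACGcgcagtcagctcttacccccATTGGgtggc
H2-D1: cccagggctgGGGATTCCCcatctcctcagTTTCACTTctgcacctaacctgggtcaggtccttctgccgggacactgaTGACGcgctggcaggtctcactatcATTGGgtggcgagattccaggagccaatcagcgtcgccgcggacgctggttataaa
H2-Q4: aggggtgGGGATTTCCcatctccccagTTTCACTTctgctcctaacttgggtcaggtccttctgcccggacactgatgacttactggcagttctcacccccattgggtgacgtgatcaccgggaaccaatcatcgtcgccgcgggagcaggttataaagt
B2m: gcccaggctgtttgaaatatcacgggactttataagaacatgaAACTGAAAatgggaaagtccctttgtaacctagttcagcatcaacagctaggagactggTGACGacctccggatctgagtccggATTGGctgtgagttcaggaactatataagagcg
H2-T23: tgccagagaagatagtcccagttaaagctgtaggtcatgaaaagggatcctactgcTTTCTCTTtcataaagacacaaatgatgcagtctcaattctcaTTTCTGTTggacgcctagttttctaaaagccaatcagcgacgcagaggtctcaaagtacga

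The classical heavy chains H2-K1 and H2-D1 carried all 3 patterns. The kappa B-like run was found in 3 of the 8 promoters (H2-K1, H2-D1 and H2-Q4) and in 0.938% of 32851 RefSeq promoters of the same length. The X2-Y pair, searched on the gene's strand only, was found in H2-K1, H2-D1 and B2m and in 0.307% of all promoters, and it was not found in the H2-Q4 or H2-T23 window. Ahead of its attgg the H2-Q4 line reads tgact, where H2-D1 reads TGACG, so the miss rests on exact letters. The interferon regulatory factor-like run, searched like the kappa B-like run on both strands, was found in 6 of the 8 promoters (H2-K1, H2-D1, B2m, H2-T23, Erap1 and H2-Q4), but also in 23.9% of all promoters. No capital stretch overlapped another. The letters of the kappa B-like run and of the pair were chosen after the sequences were seen, and a match describes letters in this window, not a site in use.

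The libraries held 15698510 to 24633158 counts. The 10 genes together took 0.204%, 0.2003% and 0.212% of the counts in the Y-Scr libraries, and 0.149%, 0.143% and 0.146% in the Y-KO libraries. As a check of the labels, the Y genes Ddx3y, Eif2s3y, Kdm5d and Uty summed to 6747, 7119 and 8860 counts in the Y-Scr libraries and to 0 counts in each Y-KO library. Of 16 leukocyte markers, 9 were at 0 counts in every library, among them Ptprc, Cd3e, Cd8a, Itgam and Ncr1. The summed leukocyte level was 108 to 116 CPM (counts scaled to the library's total) in Y-Scr and 95.5 to 101.5 CPM in Y-KO, nearly all of it Cd68, a lysosomal protein gene that cancer cell lines also express. The 5 endothelial markers summed to 0.544 to 0.752 CPM in Y-Scr and 0.560 to 0.859 CPM in Y-KO, with Emcn at 0 counts, and the 5 fibroblast markers, mostly Pdpn, summed to 190.4 to 213 CPM and 167 to 168 CPM. Within that list Pdpn was lower (-0.37 ± 0.06, adjusted p = 0.00011 by edgeR) and Pdgfra higher, from 8.68 to 14.4 CPM (0.73 ± 0.13, adjusted p = 0.00018 by edgeR). The labelled bladder cancer cells were only partly matched by the 12 epithelial markers: Krt8 and Krt18 made up most of their 3352 to 3720.3 CPM in Y-Scr and 4017 to 4325 CPM in Y-KO, while Epcam, Cdh1 and the urothelial gene Upk3a were at 0 counts in all 6 libraries. Of the 4 epithelial markers tested, 2 were higher in Y-KO and 0 lower, beside 20.7% and 22.98% of all tested genes. They were Krt8 (0.36 ± 0.06, adjusted p = 7.1e-05 by edgeR) and Krt19, from 1.42 to 7.53 CPM (2.37 ± 0.23, adjusted p = 1.5e-07 by edgeR). Whether other cells have a part in the results below was not tested beyond these levels.

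Of the 10 genes, 9 were lower in Y-KO, 0 were higher and Erap1 did not pass the test (edgeR's quasi-likelihood test, Benjamini-Hochberg adjusted p under 0.05 over all 12907 genes tested). In the same comparison 22.98% of all tested genes were lower and 20.7% were higher, 2966 and 2667 genes. With a trend of fold change on gene length and GC content removed, this balance turned to 2352 lower and 3189 higher genes of 12897 tested, while 8 of the 10 genes were lower and 0 higher. The 9 genes were also those whose Y-KO libraries all lay below every Y-Scr library in CPM, an order seen in 27.5% of the tested genes. The 10 genes were chosen with earlier results of these data known, so these shares describe them and do not test the set. The median log2 fold change of the 10 genes was -0.66, beside -0.01 for all tested genes, and they ranged from -1.62 for Nlrc5 to 0.06 for Erap1. Summed over the 10 genes, the level was 2052 to 2180 CPM in Y-Scr and 1400.3 to 1465 CPM in Y-KO. In bulk RNA, fewer cells that express a gene and less RNA per cell cannot be told apart. Values per library below are in CPM scaled by TMM and in the order of replicates 1 to 3, fold changes are log2 differences of Y-KO from Y-Scr with their standard error, and every adjusted p comes from the same edgeR test.

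**Figure D1:**
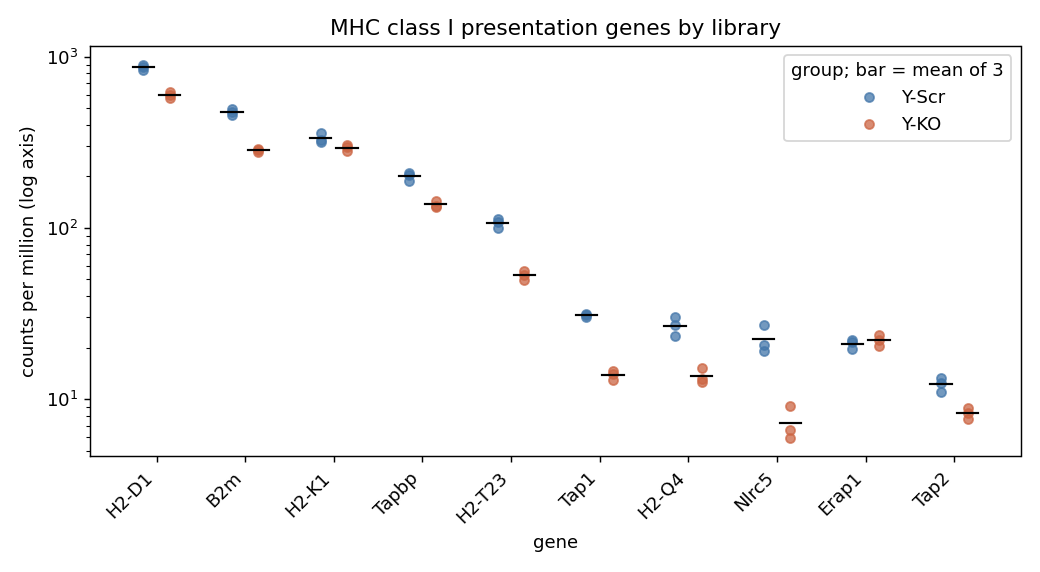
Each point is 1 library, with CPM on a log axis, genes ordered by their mean level, and bars at the mean of the 3 libraries of a group. For 9 genes the 3 Y-KO points lie below the 3 Y-Scr points, from a narrow gap in H2-K1 to a wide one in Nlrc5, while the Erap1 points overlap.

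Nlrc5 (ENSMUSG00000074151, chromosome 8, 94434356 to 94527272, plus strand, GRCm38), the transactivator, showed the largest fold change of the 10. It stood at 27.1, 20.7 and 19.1 CPM in the Y-Scr libraries and at 6.61, 9.15 and 5.95 CPM in the Y-KO libraries. The groups were well apart, and Y-Scr replicate 1 was the highest library. The means were 22.3 ± 4.23 CPM and 7.23 ± 1.69 CPM (SD, n = 3 each), so that Y-KO held 32.5% of the Y-Scr level (log2 fold change -1.62 ± 0.17, adjusted p = 6.5e-07 by edgeR).

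The classical heavy chains, which present peptides to CD8 T cells, fell by unequal amounts. H2-D1 (ENSMUSG00000073411, chromosome 17, 35262730 to 35267499, plus strand) stood at 836, 870.2 and 902 CPM in Y-Scr and at 623, 579 and 597 CPM in Y-KO. Its groups did not overlap, and the gap between them was wider than the range within either group. The means of 869 ± 33.0 and 599.7 ± 22.3 CPM (SD, n = 3 each) put Y-KO at 69.0% of Y-Scr (-0.54 ± 0.06, adjusted p = 9.6e-07 by edgeR).

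H2-K1 (ENSMUSG00000061232, chromosome 17, 33996017 to 34000333, minus strand) moved least among the 9 called genes. Its levels were 318, 325 and 360.2 CPM in Y-Scr and 304, 283 and 297 CPM in Y-KO, so the highest Y-KO library lay close under the lowest Y-Scr library. The log2 fold change was -0.18 ± 0.07 (adjusted p = 0.0299 by edgeR; means 334 ± 22.9 and 295 ± 10.6 CPM, n = 3 each). The call was lost without Y-Scr replicate 3 (-0.12, adjusted p = 0.107), without Y-KO replicate 1 (-0.20, 0.0576), replicate 2 (-0.15, 0.131) or replicate 3 (-0.19, 0.0872), and after removing a trend of fold change with gene length and GC content (-0.09, 0.183).

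The other heavy chains of the set had larger fold changes than both. H2-T23 (ENSMUSG00000067212, chromosome 17, 36029773 to 36032855, minus strand) encodes Qa-1, which presents leader peptides of other class I chains to the NKG2A receptor of natural killer cells. It stood at 99.4, 112 and 108 CPM in Y-Scr and at 53.0, 49.7 and 55.9 CPM in Y-KO. The groups did not overlap, and Y-KO held 49.6% of the Y-Scr level. The group means were 106 ± 6.57 and 52.9 ± 3.07 CPM (SD, n = 3 each; -1.01 ± 0.07, adjusted p = 2.3e-09 by edgeR).

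H2-Q4 (ENSMUSG00000035929, chromosome 17, 35379617 to 35385290, plus strand) belongs to the nonclassical Qa group. Its 23.5, 27.1 and 29.99 CPM in Y-Scr stood against 15.2, 13.1 and 12.6 CPM in Y-KO, without overlap. The mean fell from 26.9 ± 3.27 to 13.6 ± 1.37 CPM (SD, n = 3 each; -0.98 ± 0.12, adjusted p = 1.8e-06 by edgeR). Counts of these genes are uncertain where copies are near-identical: of all 50-base windows of the annotated transcripts, 21.8% in H2-Q4, 13.6% in H2-T23, 12.8% in H2-D1 and 9.63% in H2-K1 also occur in another gene, and at 100 bases 2.16%, 3.15%, 3.59% and 0.957%.

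B2m (ENSMUSG00000060802, chromosome 2, 122147686 to 122153083, plus strand) encodes the light chain that pairs with class I heavy chains. It stood at 476, 456 and 493 CPM in Y-Scr and at 277, 286 and 289 CPM in Y-KO. Both groups were tight, and the highest Y-KO library was far below the lowest Y-Scr library. The means were 475 ± 18.5 and 284 ± 6.27 CPM (SD, n = 3 each), with Y-KO at 59.9% of Y-Scr (-0.74 ± 0.06, adjusted p = 1.1e-08 by edgeR). With the trend of fold change on gene length and GC content removed, the difference was -0.34 and stayed past the threshold (adjusted p = 7.9e-05 by edgeR). No 50-base window of its transcripts occurs in another gene.

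Tap1 and Tap2 encode the 2 subunits of the peptide transporter, and Tap1 had the larger fold change. Tap1 (ENSMUSG00000037321, chromosome 17, 34187553 to 34197225, plus strand) stood at 30.1, 31.5 and 31.0 CPM in Y-Scr and at 12.8, 14.5 and 14.0 CPM in Y-KO. The libraries of a group were nearly equal, and the groups were far apart. The means were 30.9 ± 0.740 and 13.8 ± 0.852 CPM (SD, n = 3 each; -1.16 ± 0.10, adjusted p = 2.2e-08 by edgeR).

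Tap2 (ENSMUSG00000024339, chromosome 17, 34203527 to 34216321, plus strand) was the lowest of the 10 genes by count in Y-Scr, at 13.3, 10.9 and 12.5 CPM, against 8.27, 8.84 and 7.65 CPM in Y-KO. The groups stayed apart, though Y-Scr replicate 2 and Y-KO replicate 2 came near each other. The means were 12.2 ± 1.19 and 8.25 ± 0.595 CPM (SD, n = 3 each; -0.57 ± 0.14, adjusted p = 0.0028 by edgeR).

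Tapbp (ENSMUSG00000024308, chromosome 17, 33915899 to 33929288, plus strand) encodes tapasin, which holds the empty class I molecule at the transporter. Its levels were 209, 188 and 203 CPM in Y-Scr and 145, 135 and 132 CPM in Y-KO, with no overlap. Y-KO held 68.6% of the Y-Scr level, with means of 199.9 ± 10.7 and 137 ± 6.53 CPM (SD, n = 3 each; -0.54 ± 0.06, adjusted p = 1.7e-06 by edgeR). Tapbp overlaps Zbtb22 on the same strand, a zinc finger gene with 2613 counts in all that was higher in Y-KO (0.27 ± 0.09, adjusted p = 0.0269 by edgeR; the call was lost without any one of Y-Scr replicate 2, Y-KO replicate 1 or Y-KO replicate 3, at adjusted p 0.0779, 0.0615 and 0.105).

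Erap1 (ENSMUSG00000021583, chromosome 13, 74639568 to 74693201, plus strand), which trims peptides inside the endoplasmic reticulum, was the one gene that did not pass the test. It stood at 21.6, 19.6 and 22.01 CPM in Y-Scr and at 20.4, 22.1 and 23.6 CPM in Y-KO, and the groups overlapped. The log2 fold change was 0.06 ± 0.10 (adjusted p = 0.665 by edgeR; means 21.1 ± 1.29 and 22.005 ± 1.61 CPM, n = 3 each). Erap1 overlaps Cast, the calpastatin gene, on the opposite strand at its 3' end. Cast held 24381 counts in all and did not pass the test (-0.09 ± 0.06, adjusted p = 0.243 by edgeR). No label or header says whether counting used strand, so reads from the overlap of the pair cannot be told apart. Apart from Zbtb22 at Tapbp, the partners that overlap the other genes held few counts. Psmb9 beside Tap1 held 86, and each of the rest held 61 or fewer.

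Levels can be compared between genes only per length, here as TPM, counts divided by the gene length of the deposited table and scaled to a fixed total per library. In Y-Scr the order of the levels was B2m (1407 ± 72.6 TPM), H2-D1 (859 ± 14.3), H2-K1 (326 ± 16.95), Tapbp (155 ± 12.5), H2-T23 (93.8 ± 3.15), H2-Q4 (26.3 ± 2.44), Tap1 (14.4 ± 0.212), Tap2 (8.27 ± 1.03), Erap1 (7.38 ± 0.579) and Nlrc5 (6.72 ± 1.52; SD, n = 3 for each). The light chain was thus the most abundant and the transactivator the least. Only Tap2 with Erap1, and Erap1 with Nlrc5, had overlapping ranges among neighbours in this order. In Y-KO the first 6 kept their places, at 935 ± 27.0 TPM for B2m, 658 ± 21.4 for H2-D1, 319.7 ± 10.7 for H2-K1, 118 ± 4.79 for Tapbp, 51.8 ± 3.14 for H2-T23 and 14.9 ± 1.39 for H2-Q4. They were followed by Erap1 (8.55 ± 0.681 TPM), Tap1 (7.12 ± 0.478), Tap2 (6.17 ± 0.434) and Nlrc5 (2.41 ± 0.564), of which only Tap1 and Tap2 overlapped. Erap1 thus stood above both transporter subunits in Y-KO and below both in Y-Scr. In TPM the 2 groups overlapped for H2-K1, at 311 to 345 TPM in Y-Scr and 307 to 327 TPM in Y-KO.

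Heavy chain genes share stretches of sequence, and reads from these may be split between genes. The counts of all 32 class I heavy chain genes of the table, 23 with any count, were thus summed and tested as 1 feature. The sum cannot recover reads that fit more than 1 gene if these were left out of the counts. The sum stood at 1386, 1451 and 1512 CPM in Y-Scr and at 1076, 1003 and 1041 CPM in Y-KO. The groups did not overlap, and the summed level was lower in Y-KO (-0.48 ± 0.06, adjusted p = 3.7e-06 by edgeR in the fit with the summed feature). Within the sum, H2-K1 made up 23.04% ± 0.730 in Y-Scr and 28.3% ± 0.204 in Y-KO (SD, n = 3 each). H2-D1 made up 59.98% ± 0.338 and 57.7% ± 0.275, H2-T23 7.35% ± 0.348 and 5.08% ± 0.245, and H2-Q4 1.85% ± 0.146 and 1.31% ± 0.0999. The heavy chain pool of Y-KO was thus smaller and held a larger share of H2-K1.

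**Figure D2:**
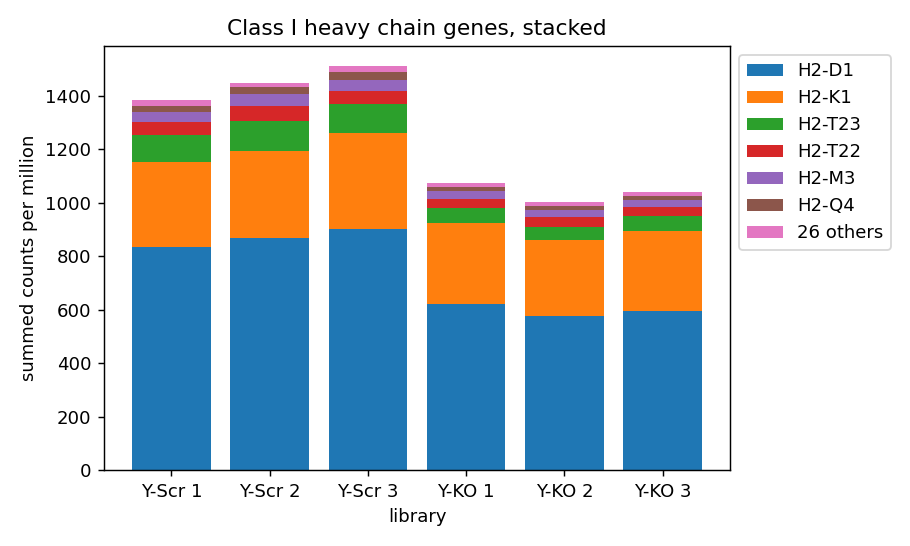
Stacked bars give the summed CPM of the class I heavy chain genes in each library, with 6 genes shown by name and 26 joined as others. The 3 Y-KO bars end at 1003 to 1076 CPM, below the 3 Y-Scr bars at 1386 to 1512 CPM, and H2-K1 takes up a larger share of each Y-KO bar.

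Ratios of counts within a library need no scaling between libraries, and 8 were compared by an exact two-sided permutation test over the 6 libraries. With 3 libraries a group, the exact permutation test cannot go below p = 0.1, so none could pass 0.05. The ratio of H2-D1 to H2-K1 had a geometric mean of 2.60 in Y-Scr and 2.03 in Y-KO (log2 difference -0.36). H2-T23 to H2-K1 stood at 0.319 and 0.179 (-0.83), H2-Q4 to H2-K1 at 0.0802 and 0.0462 (-0.79), and B2m to H2-K1 at 1.42 and 0.965 (-0.56). All 4 ratios to H2-K1 were lower in every Y-KO library than in any Y-Scr library. Tap1 to Tap2 stood at 2.52 and 1.67 (-0.60) and Tap1 to Tapbp at 0.155 and 0.101 (-0.62). B2m to Canx, the gene of the chaperone calnexin that holds new heavy chains, stood at 0.832 and 0.389 (-1.10). Each of these 7 ratios gave the smallest p the exact permutation test allows, 0.1, and 0.114 after Benjamini-Hochberg adjustment over the 8. The last, Tap1 to Psmb9, rested on few Psmb9 counts, and its groups overlapped (exact permutation p = 0.2). A trend with gene length and GC content does not cancel in a ratio, and it was not removed from these 8. With it removed in the fit of single genes, B2m stood at -0.34, H2-K1 at -0.09 and Canx at 0.55. In that fit H2-D1 stood at -0.48, H2-T23 at -0.945, H2-Q4 at -0.89, Tap1 at -1.30, Tap2 at -0.62 and Tapbp at -0.57.

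Beyond the 10 genes, 84 other genes of the class I pathway were in the table and 65 were tested. Of these, 25 were lower in Y-KO (38.5%, beside 22.98% of all tested genes), 18 were higher (27.7%, beside 20.7%) and 22 did not pass the test, with a median log2 fold change of -0.05. With the length and GC trend removed, 21 were lower and 19 higher. These lists too were chosen with earlier results of these data known, so their shares are a description and not a test. The groups of genes within the pathway moved in different directions. The listed heavy chains, class I-like molecules and proteasome genes held lower calls and no higher ones. The listed peptidases, mostly cytosolic, held higher calls and no lower ones.

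**Figure D3:**
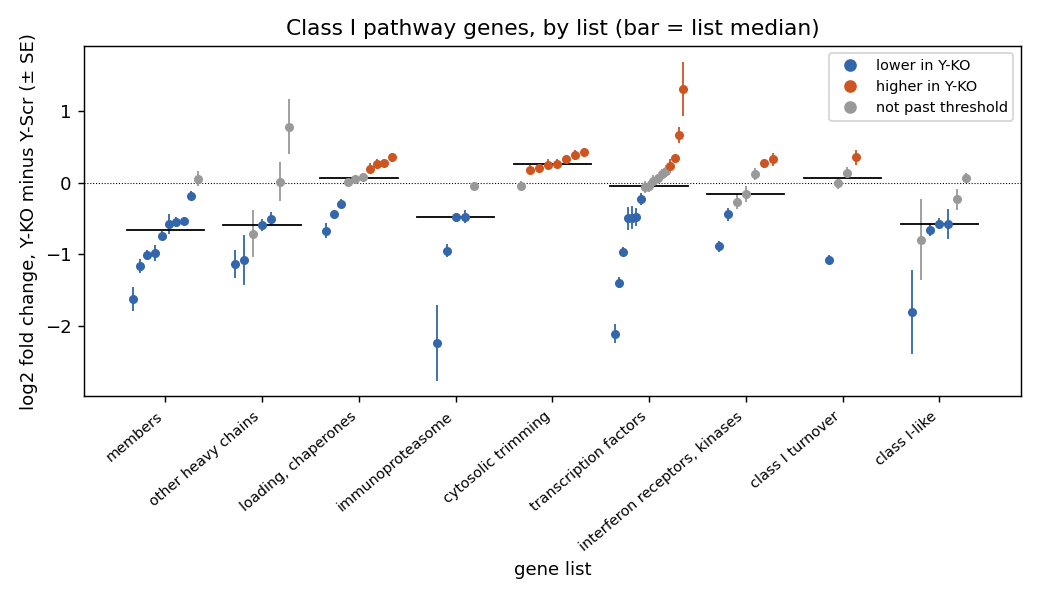
Each point is 1 tested gene with its log2 fold change of Y-KO from Y-Scr and standard error, grouped by list, with a bar at the list's median. The 10 genes of the first column have their median at -0.66, the immunoproteasome list at -0.48, and the cytosolic trimming list at 0.26.

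Of the other heavy chain genes, 7 of 19 were tested, 4 were lower and 0 higher, with a median of -0.59. H2-T22, a nonclassical chain that gamma delta T cells recognise, fell from 52.1 ± 2.85 to 34.6 ± 0.967 CPM (SD, n = 3 each; -0.59 ± 0.08, adjusted p = 1.3e-05 by edgeR). H2-M3, which presents formylated peptides, was lower by -0.50 ± 0.09, the pseudogene H2-K2 by -1.13 ± 0.19 and the low-count H2-Q6 by -1.08 ± 0.35. The H2-Q6 call was lost without Y-Scr replicate 1 (adjusted p = 0.0875), Y-KO replicate 1 (0.0588) or Y-KO replicate 3 (0.0607), and H2-M3 stood at -0.27 with the length and GC trend removed. H2-T22 and H2-T10 share 1124 of the 3597 windows of 50 bases in H2-T22, so reads of the pair may be split between them, and H2-T10 did not pass the test (0.78 ± 0.38, adjusted p = 0.107 by edgeR).

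The immunoproteasome, with its activator, cuts the peptides that class I molecules carry. Of 5 tested genes 4 were lower and 0 higher, with a median of -0.48. Psme2, an activator subunit, fell from 105.6 ± 12.7 to 54.7 ± 6.47 CPM (SD, n = 3 each; -0.95 ± 0.10, adjusted p = 7.2e-07 by edgeR), and its partner Psme1 was lower by -0.48 ± 0.07. The catalytic subunit Psmb10 was lower by -0.47 ± 0.10. Psmb9, whose start lies beside that of Tap1 on the opposite strand, held only 15, 28 and 29 counts in Y-Scr and 4, 2 and 8 in Y-KO (-2.24 ± 0.53, adjusted p = 0.0020 by edgeR). Psmb8 had too few counts to test, 6, 10 and 14 against 6, 2 and 3.

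The listed peptidases, most of which trim or destroy peptides in the cytosol before transport, moved the other way. Of these, 7 of 8 tested were higher in Y-KO, 0 lower, and the median was 0.26. The 8 include Lnpep (0.26 ± 0.07), a membrane peptidase and not a cytosolic one. Ide, the insulin-degrading enzyme, rose from 122 ± 3.27 to 164 ± 3.29 CPM (SD, n = 3 each; 0.43 ± 0.06, adjusted p = 1.3e-05 by edgeR). Thop1 was higher by 0.39 ± 0.07, Npepps by 0.33 ± 0.06 and Tpp2 by 0.27 ± 0.07. With the length and GC trend removed Thop1 stood at 0.19 and Tpp2 at 0.47, both past the threshold.

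Chaperones and loading factors of the endoplasmic reticulum were mixed, with 3 of 10 lower, 4 higher and a median of 0.07. Tapbpl, the tapasin-related protein that edits peptides, was lower by -0.67 ± 0.11 (adjusted p = 7.2e-05 by edgeR), from 42.6 ± 6.48 to 26.7 ± 2.33 CPM (SD, n = 3 each). Canx rose from 571 ± 20.2 to 731 ± 6.92 CPM (0.36 ± 0.06, adjusted p = 7.2e-05 by edgeR). The general folding chaperone Hspa5 was lower by -0.44 ± 0.06 and the export factor Bcap31 by -0.29 ± 0.07, while the translocon genes Sec61a1 (0.28 ± 0.06) and Sec61b (0.20 ± 0.07) and the folding sensor Uggt1 (0.26 ± 0.07) were higher. The Sec61b call was lost without any one of Y-Scr replicate 1 or 2 (adjusted p 0.106 and 0.0738) or Y-KO replicate 1, 2 or 3 (0.0702, 0.0854 and 0.0877). Calr (0.08 ± 0.06) and Pdia3 (0.02 ± 0.06), the other partners of tapasin in the loading complex, did not pass the test. With the length and GC trend removed both did, at 0.25 and 0.22, Canx stood at 0.55, Hspa5 at -0.29 and Sec61b at 0.31, and Bcap31 (adjusted p = 0.962), Sec61a1 (0.0599) and Uggt1 (0.177) lost their calls.

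Factors that act on class I promoters moved in both directions. Of 17 tested, 7 were lower, 4 higher and 6 did not pass, with a median of -0.05. Irf1, an interferon-induced activator of Nlrc5, Tap1 and class I genes, fell from 107 ± 4.29 to 40.8 ± 1.52 CPM (SD, n = 3 each; -1.40 ± 0.07, adjusted p = 1.2e-11 by edgeR). Rela, a subunit of NF-kappa B, was lower by -0.96 ± 0.06, and Irf2 by -0.48 ± 0.13. Higher were Suz12, a subunit of the repressive Polycomb complex that silences class I genes in some tumors (0.34 ± 0.07), the Y box factor subunit Nfyc (0.24 ± 0.09) and the low-count Irf8 (1.32 ± 0.38). The Nfyc call was lost without Y-Scr replicate 2 (adjusted p = 0.184) or without Y-KO replicate 1, 2 or 3 (0.0808, 0.0878 and 0.116), and Suz12 stood at 0.53 with the length and GC trend removed. The 3 subunits of RFX, which binds the X box, did not move together: Rfxap was higher (0.67 ± 0.11, adjusted p = 8.5e-05 by edgeR), while Rfx5 (-0.50 ± 0.16) and Rfxank (-0.49 ± 0.16) were lower. The Rfx5 and Rfxank calls were lost without Y-Scr replicate 1 (adjusted p 0.122 and 0.0606) or Y-KO replicate 1 (0.0677 and 0.118), and that of Rfx5 also without Y-KO replicate 2 (0.0574).

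Of the 7 interferon receptor and kinase genes 2 were lower and 2 higher (28.6% each, beside 22.98% and 20.7% of all tested genes). Both chains of the interferon gamma receptor were lower: Ifngr1 by -0.89 ± 0.08, from 75.1 ± 3.30 to 40.6 ± 2.60 CPM (SD, n = 3 each; adjusted p = 4.1e-08 by edgeR), and Ifngr2 by -0.44 ± 0.09. The kinases Jak1 (0.27 ± 0.07) and Tyk2 (0.33 ± 0.09) were higher, and Tyk2 stood at 0.11 with the length and GC trend removed (adjusted p = 0.324 by edgeR). Ifnar1 (0.12 ± 0.08) and Ifnar2 (-0.26 ± 0.11), the chains of the type I interferon receptor, did not pass the test, and Ifnar2 passed it without Y-Scr replicate 1 (-0.31, adjusted p = 0.0293 by edgeR).

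Among genes for the turnover of class I molecules, Susd6, reported to lower surface class I together with Tmem127 and Wwp2, fell from 128 ± 2.80 to 60.7 ± 1.73 CPM (SD, n = 3 each; -1.07 ± 0.07, adjusted p = 1.2e-10 by edgeR). Tmem127 (0.00 ± 0.08) and Wwp2 (0.14 ± 0.08) did not pass the test. The ubiquitin ligase March9 was higher (0.36 ± 0.10), and its call was lost without Y-KO replicate 3 (adjusted p = 0.0520). Of the 7 tested class I-like molecules 4 were lower and 0 higher, with a median of -0.57. They were the endothelial protein C receptor gene Procr (-0.57 ± 0.07), the NKG2D ligand Raet1e (-0.65 ± 0.09), and the low-count Raet1d and Fcgrt. The Raet1d call was lost without Y-Scr replicate 3 or Y-KO replicate 2 or 3 (adjusted p 0.107, 0.0716 and 0.0945), and the Fcgrt call without Y-Scr replicate 2 or Y-KO replicate 1 or 2 (0.246, 0.145 and 0.104). Ulbp1, another ligand of NKG2D, did not pass the test (0.07 ± 0.07). With the length and GC trend removed Procr stood at -0.36 and Raet1e at -0.38, and Ulbp1 was higher (0.19, adjusted p = 0.0099 by edgeR).

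Of the 10 genes, 6 lie in the H2 region of chromosome 17 between the outermost class I heavy chain genes with counts (33974831 to 37483552, GRCm38), and among the other genes there more were higher than lower. In this interval 17 class I, peptide supply and class II genes were tested, of which 12 were lower and 1 higher, with a median of -0.59. Of the 76 other tested genes there, 9 were lower (11.8%, beside 22.98% of all tested genes), 19 were higher (25.0%, beside 20.7%) and the median was 0.12. The lower neighbours included Flot1 (-0.77 ± 0.07), Neu1 (-0.60 ± 0.08), Ppp1r11 (-0.58 ± 0.07) and Ier3 (-0.56 ± 0.07), and the higher ones Prrc2a (0.52 ± 0.07), Ehmt2 (0.41 ± 0.06), Bag6 (0.37 ± 0.06) and Tubb5 (0.34 ± 0.06). With the length and GC trend removed, Prrc2a stood at 0.20, Ehmt2 at 0.18 and Bag6, no longer past the threshold, at 0.12 (adjusted p = 0.0868 by edgeR).

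**Figure D4:**
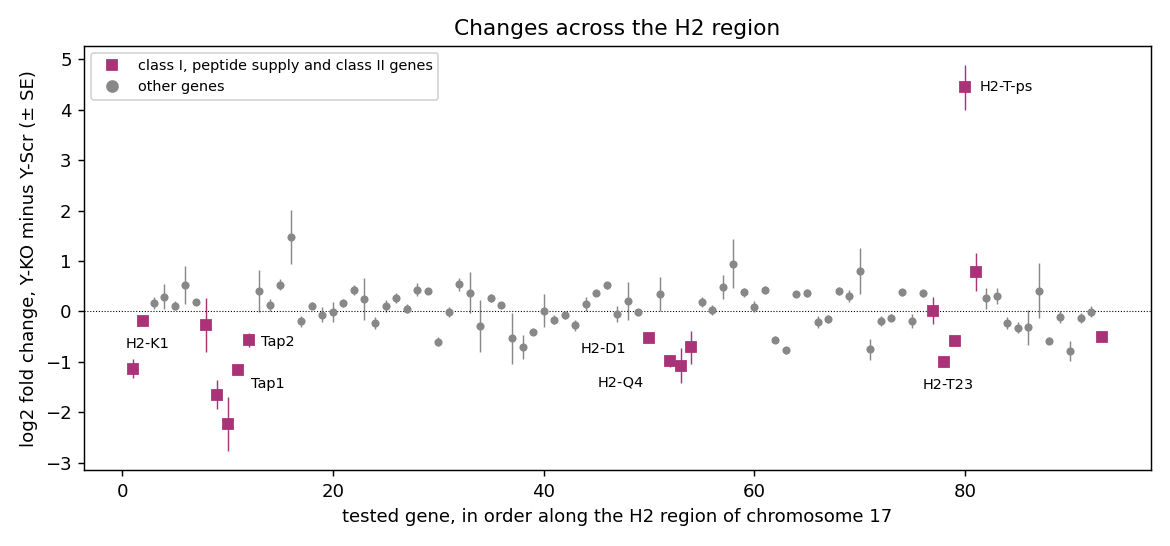
Tested genes are placed in their order along the H2 region of chromosome 17, with the log2 fold change of Y-KO from Y-Scr and its standard error. Of the 17 class I, peptide supply and class II genes (squares) 12 were lower and 1, H2-T-ps, was higher, while the 76 other genes (circles) had a median of 0.12.

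The class I gene of the region that was higher was H2-T-ps, a pseudogene at 36109234 to 36111658. It was not in the list of other heavy chains above and is named after its values were seen. It had 3 counts in each Y-Scr library and 86, 51 and 55 counts in the Y-KO libraries (4.44 ± 0.44, adjusted p = 1.6e-07 by edgeR). Its Y-KO level of 3.64 ± 0.852 CPM (SD, n = 3) was small beside the 52.9 ± 3.07 CPM of H2-T23, the gene with which it shares most 50-base windows, 183 of its 1018. Reads that fit both could be counted for either gene or for neither, and their part in this difference was not tested.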

How the data were processed

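Poly-A RNA was sequenced from 3 Y-Scr and 3 Y-KO libraries of MB49 cells, all in batch 1 per the labels. The authors deposited whole-number read counts per gene with no normalization, and gene lengths. The submitters' processing notes name featureCounts 1.5.3, STAR 2.5.2b, Trimmomatic 0.39, MultiQC 1.13, FastQC 0.12.1 and DESeq2, and GRCm39 or mm39 as build. The deposited coordinates matched GRCm38 instead: of 54409 genes shared with GENCODE vM21, 53462 (98.3%) had the same chromosome, start and end. No source used here states the strand setting.

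Y-KO was set against Y-Scr in R 4.3.3 by edgeR 4.0.16 (TMM, filterByExpr, robust quasi-likelihood fit on group, Benjamini-Hochberg threshold 0.05 over 12907 genes). The fit was tested on simulated data, where its false calls were held to a limit only in data without a length trend. Libraries held 15698510 to 24633158 counts, and no pair of replicates agreed within sampling noise (chi-square over its degrees of freedom, 3.55 to 16.0). Ratios used counts with 0.5 added. Alternatives were other scalings and filters, DESeq2 1.42.0, limma-voom (limma 3.58.1), a replicate block, a length and GC trend removed, and each library left out. The 10 genes and the pathway lists were chosen with earlier results of these data known. Named were the 10 genes, up to 4 genes per direction in each list by adjusted p, a fixed set of loading, proteasome and regulatory genes, and up to 4 neighbours per direction; 1 gene of the fixed set is not reported here.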

Additional observations from a re-analysis of the deposited data

How the results depend on the processing

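Across 15 alternatives, 8 or 9 of the 10 genes were lower and 0 higher. The 8 other called genes kept direction and call in all 15, with Nlrc5 between -1.82 and -1.45, Tap1 between -1.30 and -1.11 and H2-T23 between -1.05 and -0.94, and Erap1 stayed not called (0.01 to 0.14). H2-K1 also lost its call with the replicate block (-0.18, adjusted p = 0.0860 by edgeR). Replicate numbers gave no sign of pairing the samples: deviations of same-numbered libraries correlated at -0.13, -0.09 and -0.03, and no library correlated best with its own number. Deviations were taken from each group's own mean, so with 3 libraries a group they cannot settle whether the numbers pair. The block left 2627 lower and 2333 higher genes of all tested, beside 2966 and 2667, and 24 lower and 15 higher pathway genes, beside 25 and 18. Removing the length and GC trend turned the balance of all genes to 2352 lower and 3189 higher. Over all alternatives, lower pathway genes numbered 21 to 27 and higher ones 14 to 19. The summed heavy chains ranged from -0.50 to -0.41. The Tap1 to Psmb9 ratio moved to 0.36 from 1.12 when 5 counts were added to each gene. With the length and GC trend removed Bcap31 stood at 0.00395, reversed from -0.29. Leaving out 1 library put uncalled genes near 0 on either side of it: Pdia3 ranged from -0.0015 to 0.047, Ulbp1 from -0.0066 to 0.15 and H2-T24 from -0.18 to 0.29. The causes were not tested. The median of all genes lay between -0.01 and 0.06 under every setting. Depth limits genes with group means below 4 CPM, among them Psmb8, Psmb9, H2-Q6, H2-Q7, H2-T10, H2-T24, H2-T-ps, Raet1d, Irf8, H2-DMa and H2-DMb1.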

Other observations

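The class II pathway, which presents peptides taken up from outside the cell, was nearly silent apart from a few genes. Of 9 class II genes listed, 3 were tested and 2 were lower in Y-KO, beside 22.98% of all tested genes. Cd74, the invariant chain, fell from 32.8 ± 0.927 to 13.0 ± 0.853 CPM (SD, n = 3 each; log2 fold change -1.33 ± 0.10, adjusted p = 3.0e-09 by edgeR). H2-DMb1, a chain of the peptide exchange factor H2-DM, was lower by -1.65 ± 0.29 (adjusted p = 0.00015 by edgeR), while its partner H2-DMa did not pass the test (-0.27 ± 0.54). H2-Aa and H2-DMb2 were at 0 counts in all 6 libraries. Summed over the 9 genes, the level was 37.0 to 38.5 CPM in Y-Scr and 14.1 to 16.0 CPM in Y-KO, nearly all of it Cd74.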
